A study of Mus musculus with 4 samples.

Results

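The receptors described here are 7 growth and survival receptors of lymphoid cells: Il7r, Il21r, Il4ra, Il9r and Il6ra, which encode cytokine receptor chains, and Kit and Flt3, which encode receptor tyrosine kinases. An accessible region was counted as a member when, of all protein-coding genes, 1 of these 7 had the span closest to it, which gave 75 of the 91266 regions of the series. The regions came from ATAC-seq, in which a transposase cuts and tags open chromatin, of splenic natural killer (NK) cells from wild-type C57BL/6 mice. They had spent 72 h in culture with interleukin-15 (IL-15), given at a low dose or at a high dose, with 2 biological replicates per dose, 4 samples in all, and about 75000 cells per replicate. The labels give neither concentration, and no group without IL-15 was analysed here. The authors' deposited tables hold positions and widths for the series as a whole, and 2 lists, named up and down, of the regions they called different between the doses. They name no reference dose, so up and down are the lists' names and are not assigned to a dose. With 0 columns of values per sample, depth is unknown, the spread between replicates cannot be measured, and no difference below carries a test.

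IL-7 receptor alpha pairs with the common gamma chain to bind IL-7, or with CRLF2 to bind thymic stromal lymphopoietin, and it supports the development and survival of lymphocytes. It also marks innate lymphoid cells and a subset of NK cells. The receptors for IL-21, IL-4 and IL-9 use the same gamma chain, which is also part of the IL-15 receptor, and these receptors signal through JAK kinases to STAT factors. IL-6 receptor alpha instead signals with gp130. KIT and FLT3, the receptors of stem cell factor and FLT3 ligand, are known for their roles in blood progenitors, KIT also in mast cells.

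Of the 75 regions, 4 were in the authors' lists, 3 down and 1 up. Il7r held 2 of the down regions among its 4 regions, Il4ra held 1 among 16, and Kit held the up region among 26. Il21r with 11 regions, Il9r with 6, Il6ra with 5 and Flt3 with 7 had no listed region. Listed regions were thus 5.33% of the receptors' regions (95% Wilson interval 2.09 to 12.9%, counting error only), against 5.61% of all regions. The down share was 4% (1.37 to 11.1%) against 1.40% of all regions, and the up share 1.33% (0.236 to 7.17%) against 4.21%. Both intervals held the share of all regions, the down interval narrowly. These intervals count regions as independent, which regions of the same gene may not be. The listed share of the group rested in part on Il7r, which held 2 of the 3 down regions: without it, 2.82% of 71 regions were listed, and 1 of the 71 was down. In these bulk libraries, a region open in fewer cells and a region less open in each cell cannot be told apart. A listed region was found at 3 of the 7 genes, against 20.1% of the 16387 genes that were nearest to any region. For the down list these figures were 2 of 7 genes against 5.39%, and for the up list 1 of 7 against 16.1%. The receptors held more regions than most genes: their counts ranged from 4 to 26, and the median of those genes was 3.

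**Figure D1:**
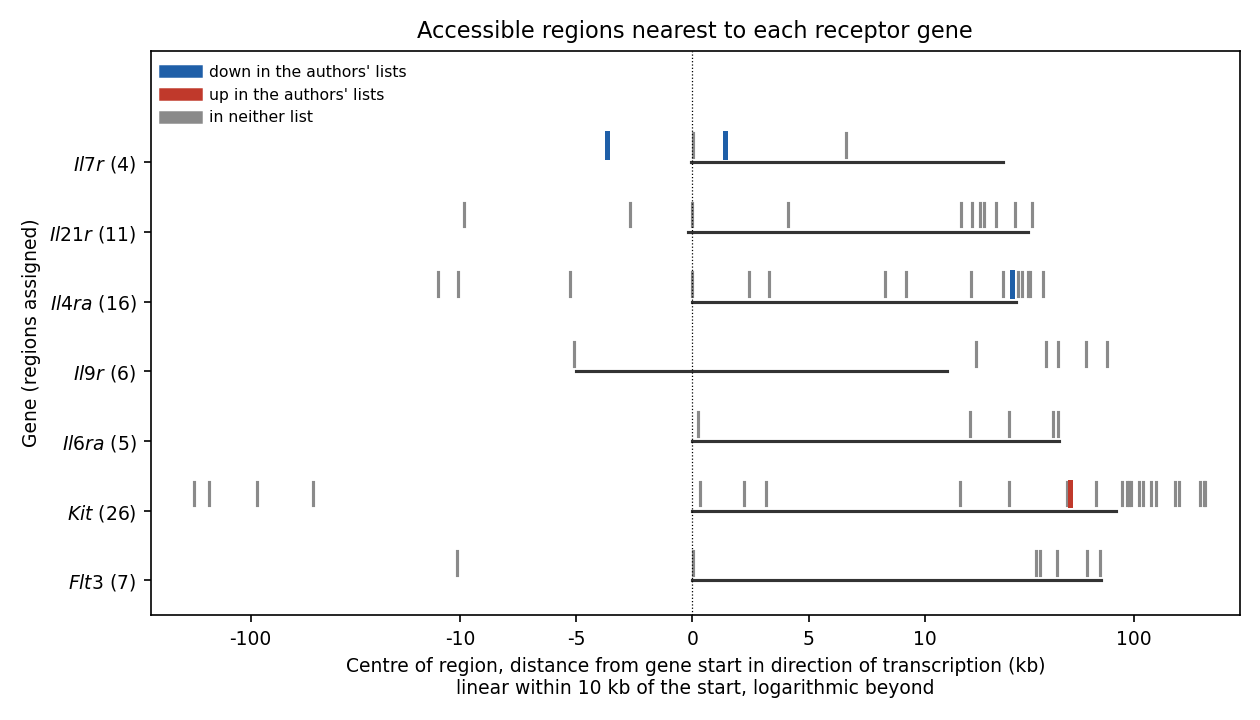
Centre of each of the 75 regions (vertical ticks) by its distance from the gene start in kb, on an axis that is linear within 10 kb and logarithmic beyond; horizontal lines are the annotated gene spans. Down regions (blue) lie on either side of the Il7r start and near the far end of Il4ra, and the up region (red) lies inside Kit.

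All of the genes but Il9r, 6 in number, had an accessible region over the promoter, taken as 250 bases before to 50 after the annotated start. The sequences below were chosen because Il7r is the gene with a down region on each side of its promoter region, because Il21r is the other receptor whose open promoter is poor in CpG, and because Kit and Flt3 are the receptor kinases, with promoters richer in CpG. Each is the part of the promoter window that lies in the accessible region and upstream of every annotated start, so that at Il21r, Kit and Flt3 the region reaches further upstream than the stretch printed. They come from RefSeq promoter sequences of GRCm38.p6, in which all 7 genes were found. All are written 5′ to 3′ on the gene's strand, and capitals mark matches to the motifs named in the next paragraph. The Il7r stretch is chr15:9529942-9530034 (minus strand), Il21r chr7:125603179-125603251 (plus), Kit chr5:75574737-75574986 (plus) and Flt3 chr5:147400490-147400739 (minus).
Il7r: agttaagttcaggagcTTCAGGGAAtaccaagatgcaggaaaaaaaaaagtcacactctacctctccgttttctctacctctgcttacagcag
Il21r: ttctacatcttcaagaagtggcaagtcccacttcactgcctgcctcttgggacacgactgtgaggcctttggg
Kit: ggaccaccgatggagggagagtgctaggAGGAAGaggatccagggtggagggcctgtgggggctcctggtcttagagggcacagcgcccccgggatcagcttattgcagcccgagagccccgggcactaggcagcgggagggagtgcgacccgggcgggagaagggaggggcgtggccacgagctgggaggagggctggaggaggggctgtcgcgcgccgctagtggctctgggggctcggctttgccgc
Flt3: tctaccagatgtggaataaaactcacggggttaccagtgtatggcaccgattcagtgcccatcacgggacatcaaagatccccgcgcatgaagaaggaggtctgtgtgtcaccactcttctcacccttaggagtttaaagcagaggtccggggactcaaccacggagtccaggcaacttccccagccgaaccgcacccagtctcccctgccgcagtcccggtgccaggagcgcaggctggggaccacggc

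In the Il7r stretch the capitals are a match to TTCNNNGAA, the palindromic STAT motif, from position -142 to -134, where 0 is the annotated start used here (chr15:9529876), which lies inside the outer limit of the annotated gene. That motif was present in 7.69% of 21263 promoter windows of protein-coding genes, and Il7r was the 1 receptor of the 7 with a match. In the Kit stretch they are AGGAAG, an ETS motif, which was in 34.4% of windows counting both strands. The full windows of Il7r, Il4ra and Il6ra also held it or its reverse complement. The RUNX motif TGTGGT, in 15.0% of windows, was matched at Il7r, Il21r and Il9r. The T-box motif AGGTGT, in 12.7% of windows, was matched at Il6ra. The AP-1 motif TGANTCA and the FOX motif AACAAA, in 6.99% and 17.8% of windows, matched none of the 7 windows. The matches describe letters in these windows and overlapped no other motif searched.

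The Il7r regions spanned the first part of the gene and its upstream flank. Il7r lies on the minus strand at chr15:9506159-9529941, with its start at 9529876. The promoter region, chr15:9529652-9530034, was 383 bp wide and in neither list. The first down region, chr15:9528059-9528851, was 793 bp wide and lay within the gene, 1.02 to 1.82 kb downstream of the start. Exons and introns were not annotated here. The second down region, chr15:9533321-9533810, was 490 bp wide and lay outside the gene, 3.44 to 3.93 kb upstream of the start. An enhancer upstream of Il7r that is bound by FOXO1 is known from T cells. Its coordinates were not used here, so whether this region is that element was not tested. The 4th region, chr15:9523147-9523376, was 230 bp wide, lay 6.5 to 6.73 kb downstream of the start and was in neither list.

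Both down regions of Il7r were wider than its other regions. Down regions of the whole series were also wider, with a median of 537 bp against 400 bp for all regions. The promoter region of Il7r was separated from its down regions by 800 bp on the gene side and 3286 bp upstream. Among regions of the same width class as the 793 bp region (733 to 973 bp), 2.31% were down, and in the class of the 490 bp region (480 to 589 bp) 2.57% were down. Of the 1574 genes with 4 regions, 3 (0.191%), Il7r included, had at least 2 down, and of the 16387 genes with any number of regions 217 had. The class of 4 regions depends on the rule of assignment, since Il7r had 9 regions when all within 50 kb were counted and 13 by nearest gene start. By number of regions, up regions and down regions, the gene with the same pattern as Il7r was Ptprh, which encodes a receptor-type phosphatase. Its listed regions summed to 1406 bp, against 1283 bp at Il7r.

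**Figure D2:**
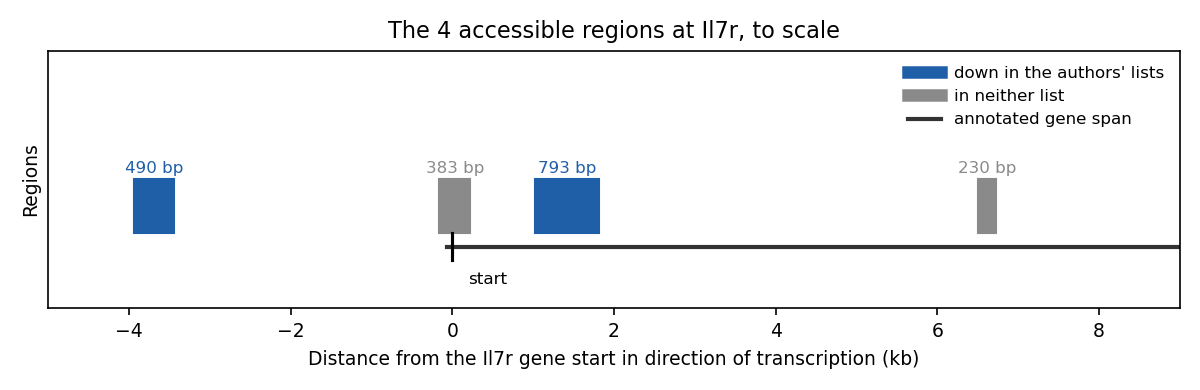
The 4 accessible regions of Il7r drawn to scale, by distance from the gene start in kb in the direction of transcription, with their widths in bp. The down regions of 490 and 793 bp flank the 383 bp promoter region, which is in neither list; the line is the annotated gene, cut off at the right edge.

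The wider Il7r locus held a further down region and no up region. Within 100 kb of the gene there were 18 regions, of which 3 were down, where 1.40% of all regions were down. The third was chr15:9455204-9455689, 486 bp wide, in the neighbouring gene Capsl, 50.5 kb from Il7r. Spef2, the neighbour on the upstream side, had 15 regions and none listed. The nearest up region was 592.3 kb away and was assigned to Prlr, the prolactin receptor gene. Windows of 100 kb at the other receptors held 2 up of 20 regions at Il6ra, 1 up of 21 at Kit and 1 up of 23 at Flt3. The down region of Il4ra was the 1 down region in the windows of Il4ra (44 regions) and Il21r (35). No listed region lay in that of Il9r.

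Il4ra and Il21r are adjacent on chromosome 7, 23.8 kb apart, and were the most densely covered of the receptors. To allow for the different spacing of genes, regions were counted per 100 kb of the stretch reaching to the midpoint with each neighbouring gene. Il21r had 23.75 and Il4ra 23.02 regions per 100 kb, at percentiles 96.1 and 95.7 of the 18014 genes that overlap no other gene. The median of those genes was 4.48 and the interquartile range 0 to 9.81. The remaining receptors had 5.89 (Il7r) to 8.07 (Flt3), within that range.

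Il4ra encodes the chain shared by the IL-4 and IL-13 receptors and lies on the plus strand at chr7:125552271-125579474. Of its 16 regions 7 lay inside the gene, 1 over the start and 8 outside, 3 of them upstream and 5 downstream. Their widths ranged from 178 to 864 bp. The widest, chr7:125551845-125552708, covered the start and was in neither list. The down region, chr7:125578177-125578430, was 254 bp wide and lay inside the gene, 1044 bp from its far end and 25.9 to 26.2 kb from the start. Down regions of that width were uncommon: 0.521% of regions of 234 to 272 bp were down. Its neighbours at 1965 and 1484 bp were in neither list.

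Il21r encodes the IL-21 receptor and lies on the plus strand at chr7:125603252-125634397. None of its 11 regions, 165 to 1490 bp wide, was listed. Its promoter region, chr7:125603080-125603718, was 639 bp wide. The widest region of all 7 genes, chr7:125592847-125594336, lay between the genes, 8.92 kb from Il21r on its upstream side. It was at percentile 98.2 of the widths of all regions. Another wide region of 1234 bp, chr7:125635395-125636628, lay 998 bp beyond the far end of the gene.

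Il9r, at chr11:32187544-32205283 on the minus strand, encodes the IL-9 receptor and was the receptor without an accessible region over its promoter window. No region lay wholly inside the gene. Its widest region, chr11:32205004-32205705, of 702 bp, overlapped the upstream limit of the annotated gene, 4.72 to 5.43 kb upstream of the start used here. That region also overlapped the limit of Snrnp25, a gene of the minor spliceosome 0.1 kb away, and it was equally near to both. The other 5 regions lay beyond the far end, up to 61.0 kb from the gene.

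Il6ra, at chr3:89869324-89913196 on the minus strand, encodes the IL-6-binding chain. Its 5 regions, 208 to 958 bp wide, comprised 4 inside the gene and 1 over the start. The last, chr3:89912468-89913425, was the widest, and none was listed. An up region assigned to its neighbour She, chr3:89861186-89861525, lay 7.8 kb beyond the far end of Il6ra. It was the listed region closest to a receptor gene among those assigned to other genes.

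By nearest protein-coding gene, Kit had the most regions of the 7 genes and also the most room. It lies on the plus strand at chr5:75574987-75656722, between the genes of 2 other receptor kinases, with Pdgfra 376.8 kb to the left and Kdr 276.1 kb to the right. Its stretch to the midpoints measured 408.2 kb, against a median of 50 kb, and its density was 6.37 regions per 100 kb. Of the 26 regions 8 lay inside the gene, 1 over the start, 4 upstream and 13 downstream, and 5 were more than 100 kb from the gene. The promoter region, chr5:75574642-75575988, was 1347 bp wide, the widest at Kit, and was in neither list. The up region, chr5:75624020-75624392, was 373 bp wide and lay inside the gene, 49.0 to 49.4 kb from the start. An unlisted region of 195 bp lay 171 bp from it. In its width class (326 to 399 bp) 8.22% of regions were up. The next up region on the chromosome was 1274.4 kb from the gene, and Pdgfra with 12 regions and Kdr with 15 had none listed.

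Flt3, at chr5:147330741-147400489 on the minus strand, had 7 regions, of which 5 lay inside the gene, 1 over the start and 1 upstream at 10.2 kb. The promoter region, chr5:147400026-147400878, was the widest at 853 bp. A region of 803 bp, chr5:147366098-147366900, lay inside the gene 33.6 to 34.4 kb from the start, and the other 5 were 213 to 288 bp wide. None was listed. The nearest up region, assigned to Pan3, was 92.7 kb away.

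The median of the receptors' region widths was 359 bp (interquartile range 238.5 to 614 bp), against 400 bp (252 to 653 bp) for all regions. Medians by gene ran from 259 bp at Flt3, 310.5 bp at Il4ra and 319 bp at Kit to 403 bp at Il6ra, 436.5 bp at Il7r, 445 bp at Il21r and 571 bp at Il9r. Widths within each gene overlapped those of every other gene. Over 1000 bp wide were 4 regions, 2 at Il21r and 2 at Kit. The 69 regions outside promoter windows had a median of 313 bp, and the 6 promoter regions one of 858.5 bp, against 960 bp for all regions over promoter windows. Inside the genes lay 44% of the regions, against 50.3% of all regions inside protein-coding genes.

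**Figure D3:**
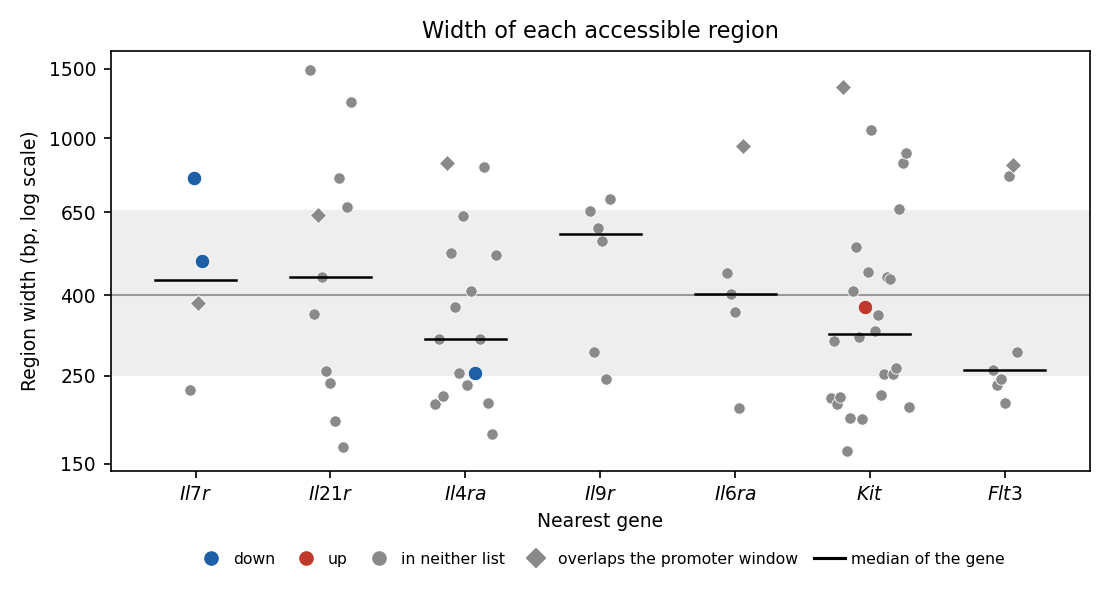
Width in bp (log scale) of each of the 75 regions by nearest gene; diamonds overlap the promoter window, black bars are medians of the gene, and the grey line and band are the median (400 bp) and interquartile range of all regions. The down regions of Il7r and Il4ra (blue) and the up region of Kit (red) lie between 254 and 793 bp.

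The promoters differed in the width of their regions and in CpG content. None of the 6 promoter regions was in a list, and of the 9465 regions over promoter windows of protein-coding genes 0.940% were (0.708% up and 0.232% down), against 6.15% of other regions. Of 17492 genes with a promoter sequence, 55.8% had a region over the window. The ratio of observed to expected CpG was 0.06 at Il7r, with 1 CpG in 300 bases, 0.23 at Il9r and 0.30 at Il21r. It was 0.62 at Kit, 0.65 at Flt3, 0.77 at Il6ra and 0.93 at Il4ra. Promoter regions were 383 bp at Il7r and 639 bp at Il21r, narrower than the 853 to 1347 bp of the 4 CpG-richer promoters. Over all genes the same order held: 14.1% of promoters with a ratio below 0.4 were open, with a median width of 717 bp, and 85.6% of those with a ratio of 0.6 or more, with a median width of 1028 bp. The Il7r and Il21r promoters were thus open in a class in which most were not. The Il9r promoter, at the start used here, was in the majority of its class. A region did overlap the upstream limit of the annotated Il9r gene, outside that window.

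**Figure D4:**
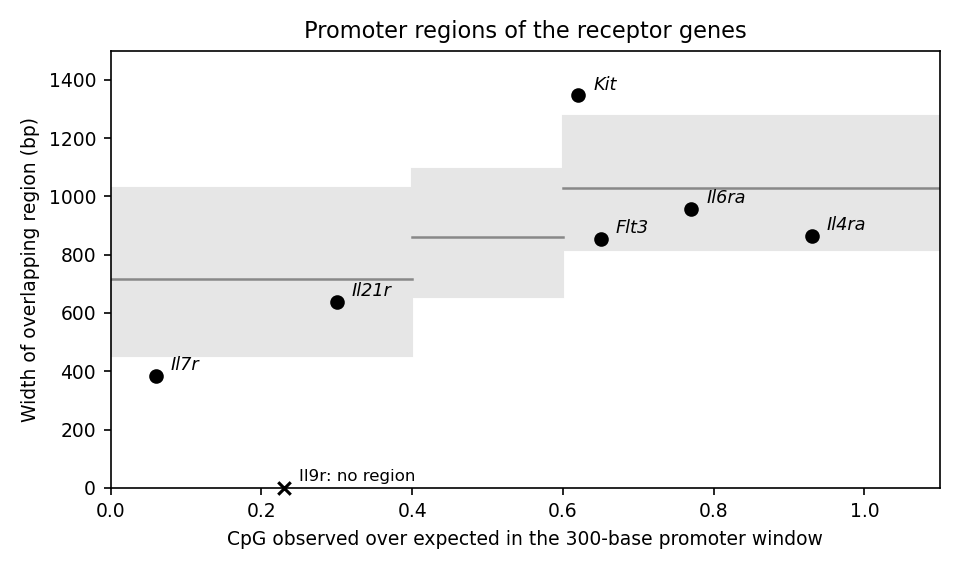
Width in bp of the region over each receptor's promoter window against the ratio of observed to expected CpG in the window; grey lines and bands are the medians and interquartile ranges for all genes with an open promoter, in classes below 0.4, from 0.4 to 0.6 and from 0.6. Il7r (383 bp) lies below the band of its class and Kit (1347 bp) above its own, and Il9r, without a region, is a cross at 0.

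The other genes of these pathways were described from lists of ligands, partner chains, transducers, feedback inhibitors, regulators of Il7r transcription and related kinases. Their listed shares stand against 5.61% of all regions, 1.40% down and 4.21% up. The 9 ligand genes had 38 regions (7.89% listed), of which 2 were up, at Kitl and Il6, and 1 was down, at Il21. All 3 lay outside the genes. Of 22 regions at 4 partner chains 1 (4.55%) was down, inside Il2rg, which encodes the common gamma chain. It was 230 bp wide, at chrX:101265123-101265352. The 9 JAK and STAT genes had 86 regions, of which 3 were down and 1 up (4.65% listed). Both down regions of Jak1, a kinase of IL-7, IL-21, IL-4 and IL-9 receptor signalling, lay inside the gene, the up region of Jak1 lay 11257 bp outside it, and Jak2 had the other down region. The 5 STAT genes had none listed. Among 38 regions of the 4 feedback inhibitors 1 (2.63%) was up, at Socs2. The 4 related kinases had 35 regions, of which 1 (2.86%) was up, at Pdgfrb. The 12 regulators of Il7r transcription had 432 regions, 11 down and 8 up (4.4% listed). Ikzf1, which encodes Ikaros, had 4 down regions of 35, all inside the gene. Tcf7, the gene of TCF-1, had 2 down and 1 up of 24. Ets1 had 2 down and 3 up of 79, with the up regions 428471 to 466094 bp from the gene, and Foxp1 had 1 of each among 93.

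Marker genes of NK cells were accessible: all 10 had a region, and 9 had one over the promoter. Of their 129 regions 8 were down and 1 was up (6.98% listed, against 5.61% of all regions, 1.40% down and 4.21% up), with 4 of the down regions at Ncr1, 2 at Klrb1c, 1 at Il2rb and 1 at Itga2, which also had the up region. Of 6 T cell markers 4 had a region and 1, Cd5, an open promoter, Cd4 and Cd8a had no region, and none was listed. Of 4 myeloid markers 3 had a region and 1, Itgam, which NK cells also express, an open promoter, and none of their regions was listed. Of 4 mast cell and progenitor markers, relevant to Kit and Flt3, Cpa3 and Gata2 had open promoters, and Fcer1a and Mpo had no region. Of the 10 regions of these markers 2 were listed (20%), both down and both at Cpa3, which had 8 regions. They lay outside that gene, at 16210 and 1816 bp. All 4 markers of other innate lymphoid cells, relevant to Il7r, had regions and 1, Gata3, an open promoter. Of their 72 regions 4 were down, 2 at Il23r and 2 at Gata3, and 4 were up, all at Gata3 (11.1% listed). Of the 6 listed regions of Gata3, 3 up and 1 down lay 282507 to 991196 bp from the gene. Whether such cells contributed to the regions at Il7r, Kit or Flt3 was not tested.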

How the data were processed

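Positions of accessible regions were analysed, from 4 ATAC-seq samples grouped by the dose in their titles. Per the submitters' processing notes, BWA, ArchR, MACS2 and HOMER 4.11.1 were used with build mm10, with no role stated. The peak threshold, pooling, differential test and reference dose are not given in the sources used here. The authors deposited 91266 regions with widths in bp, and lists of 3845 up and 1275 down regions, given without fold or p-value. The regions do not overlap, and each listed region was identical to 1 of them once 0-based starts were raised by 1. All coordinates are 1-based.

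Genes (21900 protein-coding) and promoter sequences came from RefSeq for GRCm38.p6, the assembly of mm10. The builds were checked: 54% of promoter windows overlapped a region, against 4.9% and 5% after moving windows by 100 kb. Ties in distance went to the gene with the nearer end, and regions still equally near to 2 genes (1 of the 75) to the gene that begins first. The planned test of the doses needs values per sample and was not run, so no difference was tested, and counts, shares with Wilson intervals, medians, interquartile ranges and percentiles are given. Assignment was tested on simulated data. The members and lists were chosen with earlier results of these data known. Named are every receptor and its listed and widest regions, its neighbouring genes, up to 4 listed genes per pathway list, and genes with the counts of Il7r. pandas 2.3.3 and numpy 2.4.6 were used.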

Additional observations from a re-analysis of the deposited data

How the results depend on the processing

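No paired analysis was possible because no table has a column for any 1 sample. Leaving out replicates, other normalizations, count filters and the replicate block were not run for the same reason. The 75 regions became 48 with genes of any biotype as candidates, and 40 when a region had to overlap the gene. They became 33 when a region had to be at least of median width, and 49 without Kit. The first place of Kit, with 26 regions, also depended on the rule. With genes of any biotype Kit had 10, against 13 at Il4ra and 11 at Il21r. Within 50 kb, whichever gene was nearest, Kit had 17, against 28 at Il4ra and 26 at Il21r. The up count of 1 became 2 when all regions within 10 kb or 50 kb of a receptor were counted, whichever gene was nearest, and 0 without Kit or without narrow regions. The down count of 3 became 1 without Il7r. Counting regions within 5 kb of a listed one, which by construction adds neighbours, gave 3 up and 9 down, or 16% listed. The background of 5.61% was 5.2% at the widths of the receptors' regions and 6.36% over 1000 bp from gene boundaries. Il7r kept 2 down regions under the rules of assignment run, except that 1 remained among regions overlapping the gene. Its total was 9 regions within 50 kb and 13 by nearest gene start, the latter a rule chosen after seeing the data, under which the down region of Il4ra went to Il21r. The listed share of 5.33% became 2.82% without Il7r, 8.33% with genes of any biotype and 8.93% within 10 kb. Without read counts, depth limits cannot be given, and an unlisted region is not shown to be equally open at both doses.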
